A study of Mus musculus with 2 samples.

Results

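The genes described are those of the cytokines IL-17A (Il17a), IL-17F (Il17f) and IL-22 (Il22) and of the receptor chains IL-17RA (Il17ra) and IL-17RC (Il17rc), 5 of the 32285 genes counted. They were chosen by symbol, and all 5 had transcripts in both libraries. The data are 2 droplet single-cell RNA-seq libraries of live leukocytes, sorted by the surface protein CD45, from tumours in the liver of C57BL/6 mice. The tumours grew from implanted RIL-175 cells, a mouse liver cancer line carrying luciferase, and all mice were on an MCD diet, which lacks methionine and choline and makes the liver fatty. The comparison asks how feeding a gut bacterium bears on innate immunity in the tumour. The AKK library came from mice given 5e9 colony-forming units of the gut bacterium Akkermansia muciniphila by mouth, and the PBS library from mice given phosphate-buffered saline. Dosing started 2 weeks ahead of the diet, the diet 2 weeks ahead of the implantation, and dosing was interrupted for 6 days after surgery. How many mice, and of what age, stand behind each library is not known from the labels, and the tumours are transplants of 1 cell line.

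IL-17A and IL-17F are related dimeric cytokines made by type 17 lymphocytes, among them gamma-delta T cells, T helper 17 cells and group 3 innate lymphoid cells. They bind a receptor built from IL-17RA, which many cell types carry, and IL-17RC, which is typical of epithelial and stromal cells; the adaptor Act1 (gene Traf3ip2) then leads to NF-kB activity and to chemokines that draw neutrophils. IL-22, often made by the same lymphocytes, acts on epithelial cells and hepatocytes through IL-22RA1 and IL-10RB. In the liver, gamma-delta T cells are a well-known source of IL-17A.

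Il17a (ENSMUSG00000025929) lies on chromosome 1 at 20730905 to 20734496 on the plus strand of GRCm38, and Il17f (ENSMUSG00000041872) at 20777146 to 20790617 on the minus strand, 42649 bases further on. Il22 (ENSMUSG00000074695) is on chromosome 10 at 118204942 to 118210047, Il17ra (ENSMUSG00000002897) on chromosome 6 at 120463247 to 120487559, and Il17rc (ENSMUSG00000030281) on chromosome 6 at 113471427 to 113483140, all on the plus strand. GENCODE M21 lists all 5 as protein-coding. The 250 bases ahead of the RefSeq start (GRCm38.p6) are shown for Il17a and Il17f, because these are neighbouring genes of related cytokines. The Il17a window is chr1:20730655-20730904 on the plus strand and the Il17f window chr1:20784271-20784520 on the minus strand, the latter inside the longer gene that GENCODE draws for Il17f. Capitals mark AGGTCA, a core bound by nuclear receptors (as TGACCT where it lies on the other strand), ACCACA, a core bound by RUNX proteins, and TATAAA, the TATA box.
Il17a: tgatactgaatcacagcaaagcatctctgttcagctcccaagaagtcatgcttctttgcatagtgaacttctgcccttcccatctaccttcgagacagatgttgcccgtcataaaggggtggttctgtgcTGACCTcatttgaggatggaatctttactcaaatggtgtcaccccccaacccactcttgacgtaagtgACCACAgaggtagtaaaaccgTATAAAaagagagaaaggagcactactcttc
Il17f: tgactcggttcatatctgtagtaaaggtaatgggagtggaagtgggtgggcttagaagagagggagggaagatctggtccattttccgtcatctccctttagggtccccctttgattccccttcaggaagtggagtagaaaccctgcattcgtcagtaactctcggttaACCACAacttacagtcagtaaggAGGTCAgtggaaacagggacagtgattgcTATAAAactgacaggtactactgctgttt
Both windows held 1 match of each kind. In Il17a AGGTCA was 120 to 115 bases ahead of the start, ACCACA 52 to 47 and TATAAA 31 to 26. In Il17f the same letters were at 58 to 53, 81 to 76 and 29 to 24 bases. On either strand, AGGTCA was in 14.02% of the 32851 RefSeq promoter windows of this length, ACCACA in 14.05% and TATAAA in 12.4%. TTCNNNGAA, the core bound by STAT proteins, was in neither window and in 7.02% of all windows. These matches describe the letters only, and binding was not measured.

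The PBS library held 5088 barcodes and 64731604 UMIs (unique molecular identifiers, counts of captured transcripts), and the AKK library 6610 barcodes and 74495998 UMIs. After filtering, 4636 PBS and 6172 AKK cells remained, with medians of 6729 and 6347 UMIs, and 8 barcode sequences occurred in both libraries. The cells were grouped without use of the 5 genes into 15 classes, each named "-like" for its markers. There was 1 library per group, so nothing was tested between groups: "higher" and "lower" describe these libraries. Intervals are 95% intervals that cover counting error only. They take UMIs as independent, although 1 cell can hold many UMIs of a gene, and hold no spread between cells or mice.

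Of the 3 cytokine genes Il17a had the largest difference, and nearly all of its transcripts came from 1 small class. The kept cells held 199 Il17a UMIs in the PBS and 1087 in the AKK library, or 42.9 (37.2 to 49.3) and 176 (166 to 187) per 1000 cells, a ratio of 4.10 (3.52 to 4.80). Gamma-delta T-like cells held 192 of the 199 PBS UMIs (96.5%) and 975 of the 1087 AKK UMIs (89.7%). This class, T cells with the gamma-delta receptor, made up 25 of the 4636 PBS cells (0.539%, 0.349 to 0.795) and 103 of the 6172 AKK cells (1.67%, 1.36 to 2.02). The difference in its share was 1.13 percentage points (0.742 to 1.52).

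Per cell of the class the libraries were much closer than per 1000 cells. Gamma-delta T-like cells held on average 7.68 Il17a UMIs (6.63 to 8.85) in the PBS and 9.47 (8.88 to 10.1) in the AKK library, a ratio of 1.23 (1.05 to 1.45). With each library clustered alone the ratio was 1.10, and its log2 interval of -0.10 to 0.37 included no difference. As counts per 1000000 UMIs of the class (CPM), these were 844 and 1084, a ratio of 1.28 (1.10 to 1.51). The share of the class with an Il17a UMI was 14 of 25 cells (56.0%, 34.9 to 75.6) in the PBS and 46 of 103 (44.7%, 34.9 to 54.8) in the AKK library. With each cell thinned to 4816 UMIs, which left out 3 PBS and 10 AKK cells, the shares were 50% and 43.0%, a difference of -6.99 points (-28.5 to 14.8), so no difference in share was detectable with this number of cells. B-like cells, which should lack the transcript, had it in none of 163 PBS and 287 AKK cells at similar depths (medians of 8330 and 7227 UMIs, against 9381 and 7916 in the gamma-delta T-like class). Neutrophil-like cells had it in 2 of 2085 (0.0959%) and 10 of 2578 (0.388%), at medians of 4939 and 4165 UMIs.

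**Figure D1:**
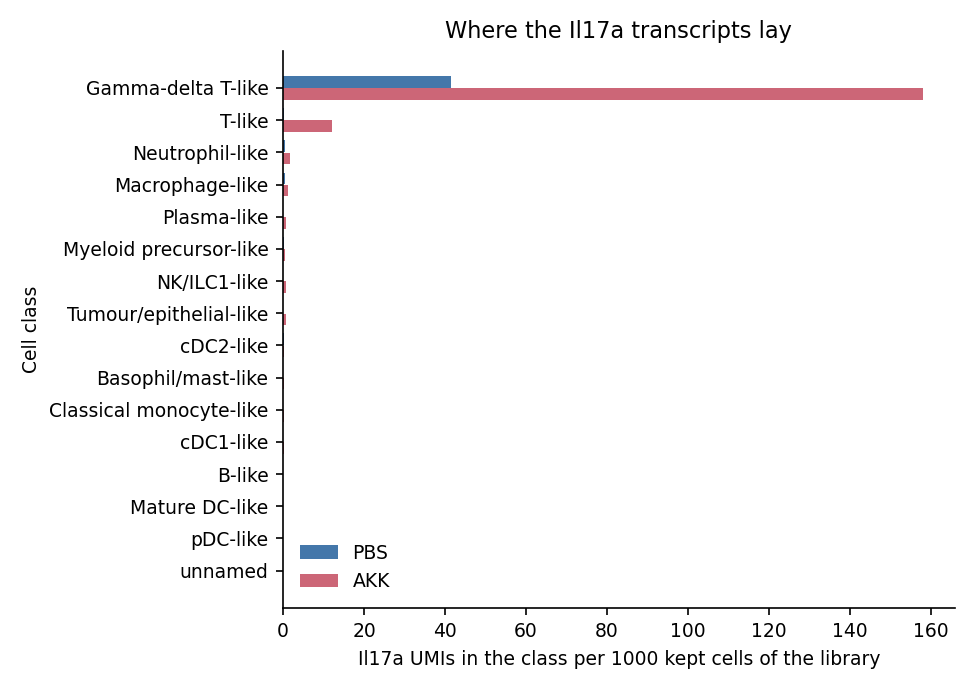
Il17a UMIs found in each cell class (vertical axis) per 1000 kept cells of the library (horizontal axis), with 1 bar for the PBS and 1 for the AKK library. The gamma-delta T-like bars reach 41.4 and 158, the AKK bar of the T-like class 12.2, and the other classes stay near 0.

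Il17a was unevenly spread among the gamma-delta T-like cells. Among the cells with a transcript, the PBS library ranged from 1 to 71 UMIs with a median of 9, and the AKK library from 1 to 114 with a median of 16.5. The ranges overlapped over most of their length. At least 10 UMIs were in 6 of 25 PBS cells (24.0%, 9.36 to 45.1) and 27 of 103 AKK cells (26.2%, 18.04 to 35.8). The top PBS cells held 71, 29 and 22 UMIs, and the first of them alone held 37.0% of the class's Il17a UMIs in that library; the top AKK cell, with 114, held 11.7%. Without the top cell of each library, the means were 5.04 and 8.44 UMIs per cell and the ratio 1.67, and the ratio per 1000 kept cells was 5.71.

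The class was split once more, again without the 5 genes, into 3 sub-groups that took different shares of the libraries. Sub-group 1 held 13 of 25 PBS cells (52.0%) and 14 of 103 AKK cells (13.6%), and its leading genes included Cd74, H2-Aa and Cst3, which serve antigen presentation in myeloid cells. Cd74 was at 1196 CPM there, against 118 and 101 CPM in the other sub-groups, but had UMIs in 59.3%, 57.4% and 59.6% of the cells of sub-groups 1, 2 and 3. Wdfy4, a dendritic cell gene, was found in 14.8% of the cells of sub-group 1. In the same order the macrophage list summed to 146, 110 and 81.4 CPM, with Trem2, Ms4a7 and Csf1r at 0 in sub-group 1. The classical monocyte list summed to 758, 691 and 900 CPM, and the list of cDC2, a kind of dendritic cell, to 105, 21.1 and 27.1 CPM. The neutrophil list summed to 965, 752 and 612 CPM, and the list of natural killer (NK) and ILC1 cells to 328, 181 and 501. The gamma-delta T list itself summed to 3038, 4270 and 3265 CPM. Of its genes, Trdc was found in 88.9%, 100% and 95.7% of the cells, and Cd163l1 in 51.9%, 98.1% and 91.5%. Trdv4 was found in 40.7%, 87.0% and 76.6%, and Tcrg-V4 in 11.1%, 1.85% and 0%. Sub-group 2 held 44.0% of the PBS and 41.7% of the AKK cells. Sub-group 3 held 1 PBS cell (4%) and 46 AKK cells (44.7%), a difference of 40.7 points (22.6 to 50.8), and was led by Nkg7, Ccl5 and Tbx21, genes of cytotoxic and type 1 lymphocytes. With 1 library per group, such a sub-group may reflect the library rather than a kind of cell.

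Il17a differed between the sub-groups. It was found in 59.3% of the cells of sub-group 1, 66.7% of sub-group 2 and 17% (7.65 to 30.8) of sub-group 3, with 9.78, 15.2 and 1.72 UMIs per cell and similar depths (medians of 8842, 8141 and 8005 UMIs). Within sub-group 2 the transcript was found in 7 of 11 PBS and 29 of 43 AKK cells, with 7.0 (5.52 to 8.75) and 17.3 (16.1 to 18.6) UMIs per cell, a ratio of 2.48 (1.96 to 3.17). Within sub-group 1 the means were 8.85 and 10.6, a ratio of 1.20 (0.937 to 1.55). The PBS cell with 71 UMIs lay in sub-group 1. The AKK class as a whole thus joined sub-group 2, with a higher mean than in the PBS library, and a large sub-group 3, with a low one. Without sub-group 1, whose part in the result was not tested, the class held 6.42 and 9.28 UMIs per cell (ratio 1.45) and the ratio per 1000 kept cells was 8.38.

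**Figure D2:**
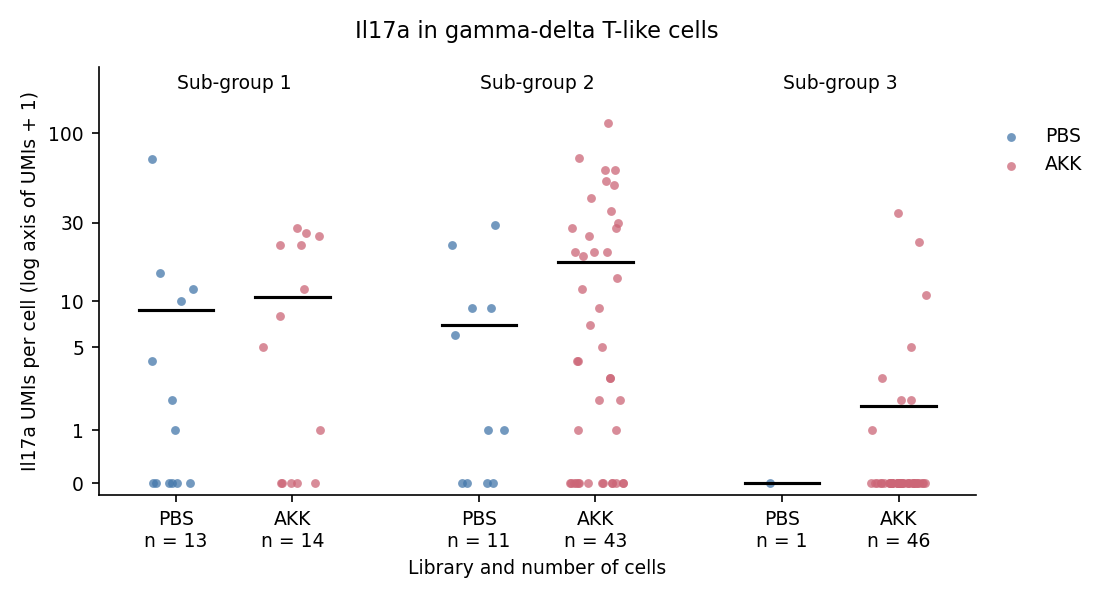
Il17a UMIs in each gamma-delta T-like cell (points; log axis of UMIs + 1) by sub-group and library, with the mean as a line. Cells of both libraries lie between 0 and 71 UMIs in sub-group 1, the highest values, up to 114, are AKK cells of sub-group 2, and most AKK cells of sub-group 3 are at 0.

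The delta chain genes fitted the label of the class, although constant genes of the alpha-beta receptor were also found in it. Trdc, the delta chain constant gene, was found in 88.0% of PBS and 98.1% of AKK cells of the class, and Cd163l1, a scavenger receptor gene typical of IL-17-making gamma-delta cells, in 76.0% and 88.3%. Both are among the markers that named the class. The variable segment gene Tcrg-V6 was found in 36% and 33.01%, and Tcrg-V4 in 8% and 1.94%. The beta constant genes Trbc2 and Trbc1 had UMIs in 68.0% and 60% of the PBS and in 74.8% and 61.2% of the AKK cells, and the alpha constant gene Trac in 12.0% and 33.01%. Cd4 had UMIs in 0% and 2.91% of the cells, and Cd8a in 4% and 0%. Some genes chosen after their values were seen were found in different shares of the cells with and without Il17a. Of the 60 cells with Il17a, 43.3% had Tcrg-V6, 66.7% Sox13 and 88.3% Blk, a kinase of these cells; of the 68 cells without Il17a, 25% had Tcrg-V6, 42.6% Sox13 and 69.1% Blk. Trdc was found in 96.7% and 95.6% of the cells with and without Il17a, and Cd163l1 in 86.7% and 85.3%. The median depths of the cells with and without Il17a were 8818 and 7642 UMIs. In sub-groups 1, 2 and 3 Tcrg-V6 was found in 14.8%, 50% and 25.5% of the cells. In the same order Sox13 was found in 44.4%, 57.4% and 55.3%, and Blk in 81.5%, 90.7% and 61.7%. The part of depth and of the sub-group mix in these shares was not tested.

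Among genes of the type 17 state, differences in both directions were about as common as among all genes of the class. Of the 19 members of the type 17 transcription factor and identity list with at least 20 UMIs over both libraries, 5 were at least 1.5-fold higher and 2 at least 1.5-fold lower in the AKK library. Over all 6532 genes with that many UMIs in the class, 22.3% were as much higher and 14.2% as much lower, so the shares of higher and lower members were near this background. Cxcr6, a chemokine receptor gene of tissue lymphocytes, was at 321 and 658 CPM (ratio 2.05, 1.61 to 2.65), and Maf, a transcription factor of type 17 cells, 422 and 687 CPM (ratio 1.63, 1.31 to 2.04). Il23r and Il1r1 belong to a list of receptors for inducing cytokines, of which 1 of 8 measured members was as much higher and 2 as much lower. Il23r, the receptor gene for IL-23, was lower in the AKK library, at 1165 and 573 CPM (ratio 0.491, 0.423 to 0.572). Il1r1, the receptor gene for IL-1, which also drives IL-17 in these cells, was at 1385 and 1590 CPM (ratio 1.15, 1.02 to 1.30). Ifng, the type 1 cytokine gene, had 0 PBS and 34 AKK UMIs in 10 cells. The AKK class was at 37.8 CPM, 2.87 times a floor of 3 counts in the PBS class. This value leaves out the counting error of the AKK UMIs. Of the 34 UMIs, 31 were in sub-group 3, which held 1 PBS and 46 AKK cells, and 3 in sub-group 2. In sub-groups 1, 2 and 3 Il23r was at 1067, 760 and 385 CPM, Maf at 507, 716 and 614, and Il1r1 at 1257, 1942 and 1265. The part of the sub-group mix in these library differences was not tested.

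Other cells' markers also differed between the gamma-delta T-like cells of the libraries. The macrophage list summed to 207 CPM in the PBS class (8 of 10 genes with a UMI, Adgre1 and Ms4a7 at 0) and 82.3 CPM in the AKK class (9 of 10, Ms4a7 at 0). The neutrophil list summed to 1086 CPM (8 of 10, Cxcr2 and Ly6g at 0) and 663 CPM (10 of 10), and the classical monocyte list to 541 CPM (7 of 8, F13a1 at 0) and 842 CPM (8 of 8). Their part in the values of the class was not tested.

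Il17a outside the class lay mainly in T-like cells of the AKK library. There were 75 Il17a UMIs in 17 of 882 AKK T-like cells (1.93%, 1.13 to 3.07) and 1 UMI in 1 of 453 PBS T-like cells (0.221%, 0.00559 to 1.22). The ratio in CPM was 39.4, with an interval from 6.86 to 1577. Of these AKK UMIs, 73 were in 15 of 536 cells of cluster c10, led by Skap1, Themis and Lef1, in which none of 196 PBS cells had a UMI (a limit of 1.53% for cells with a UMI by 3 counts over 196 cells, which does not limit the share of cells that express the gene). One cell held 34 UMIs, and without it 41 remained. All 7 T-like cells with more than 1 Il17a UMI had Trbc2, which most gamma-delta T-like cells had too, 6 had Trac, 4 Cd4 and 1 Cd8a, while none had Trdc. NK/ILC1-like cells held 0 and 4 Il17a UMIs.

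Il17f was rare, and most of its UMIs lay outside the gamma-delta T-like class. All kept cells held 34 UMIs in the PBS and 47 in the AKK library, or 7.33 (5.08 to 10.2) and 7.62 (5.60 to 10.1) per 1000 cells, a ratio of 1.04 (0.654 to 1.66). Gamma-delta T-like cells held 0 PBS UMIs, a limit of 12.0% for cells with a UMI by 3 counts over 25 cells, and 4 AKK UMIs in 4 of 103 cells (3.88%, 1.07 to 9.65). These 4 cells also had Il17a, and the AKK class was at 4.45 CPM (1.21 to 11.4). Myeloid precursor-like cells, which carry genes of granulocyte granules, held the most, with 18 UMIs in 15 of 139 PBS cells and 15 UMIs in 7 of 137 AKK cells. The CPM of that class were 3.08 (1.83 to 4.87) and 3.01 (1.69 to 4.97), a ratio of 0.977 (0.458 to 2.05). Relative to RNA the intervals of the AKK gamma-delta T-like and precursor-like classes overlapped. The class was deep, with medians of 37066 and 32672 UMIs per cell, and its cells with Il17f were deeper still (52851 and 65912). At medians of 4939 and 4165 UMIs, 1 of 2085 PBS and 0 of 2578 AKK neutrophil-like cells had a UMI.

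Il22 was rarer still and its PBS transcripts came from a few cells. All kept cells held 19 UMIs in 6 PBS cells and 8 UMIs in 6 AKK cells, or 4.10 (2.47 to 6.40) and 1.30 (0.560 to 2.55) per 1000 cells. Of the PBS UMIs, 16 were in 3 of 80 cDC2-like cells, a class of dendritic cells, with 10, 3 and 3 UMIs, while none of 134 AKK cDC2-like cells had one (a limit of 2.24% by 3 counts). Without the cell with 10 UMIs, 9 PBS UMIs are left beside the 8 AKK UMIs. T-like cells held 0 and 3 UMIs and gamma-delta T-like cells 0 and 2, the latter in 1 cell that also had Il17a. Iltifb (chromosome 10, 118289629 to 118295038, minus strand) is a copy of Il22, with a gap of 79581 bases between the genes. It matched Il22 at 97.4% of 1110 aligned transcript bases and had 4 UMIs, so reads of the pair may be split and the Il22 counts are uncertain.

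Of the other ligand genes of both families, none reached 20 UMIs in any of the classes compared. Over all kept cells Il17c, an epithelial member of the family, had 37 PBS and 29 AKK UMIs, and Il17d 20 and 23. Il25, Il20 and Il24 had no UMI.

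Il17ra was found in every class, highest in classical monocyte-like and neutrophil-like cells. Of its 6640 PBS and 7251 AKK UMIs, 39.6% and 33.1% were in neutrophil-like and 20.2% and 19.1% in classical monocyte-like cells. Classical monocyte-like cells were at 233 CPM (221 to 246) in the PBS and 263 (250 to 278) in the AKK library, and neutrophil-like cells at 221 (212 to 229) and 202 (194 to 210). The intervals of these classes overlapped in the PBS and not in the AKK library. A middle group followed with basophil/mast-like cells (125 and 131 CPM), gamma-delta T-like (123 and 72.3), pDC-like (114 and 104), T-like (106 and 92.0), NK/ILC1-like (93.6 and 95), B-like (92.0 and 83.3), plasma-like (83.1 and 53.8) and myeloid precursor-like cells (79.3 and 110). Neighbours in this PBS order had overlapping intervals, down to the macrophage-like cells that followed, at 73.0 (67.7 to 78.6) and 56.2 (50.8 to 61.9) CPM, and cDC2-like cells were lower, at 46.0 (37.1 to 56.4) and 59.5 (51.1 to 69.0). The lowest values were in cDC1-like (22.2 and 32.3), tumour/epithelial-like (19.4 and 19.6) and mature DC-like cells (19.3 and 17.8), whose PBS intervals overlapped.

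These levels are relative to the RNA of the cell. Tumour/epithelial-like cells, with medians of 74344 and 77432 UMIs, held 1.42 and 1.47 Il17ra UMIs per cell, more than neutrophil-like cells with 1.26 and 0.930, although their CPM were the lower. Unnamed clusters were at 103 and 253 CPM, and different clusters made up that group in the libraries (159 and 22 cells of a shallow cluster, 3 and 24 of a cluster near the cDC2-like class).

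**Figure D3:**
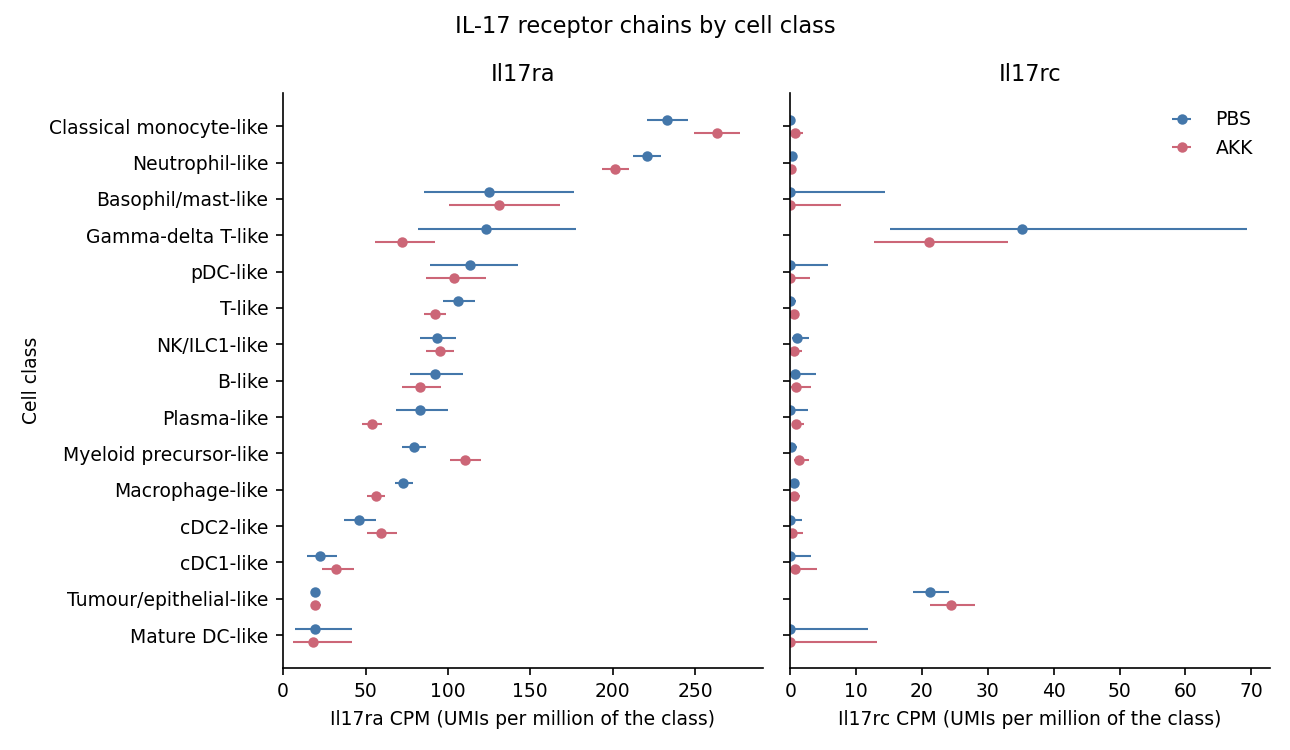
CPM of Il17ra (left) and Il17rc (right) by cell class and library, as points with exact Poisson 95% intervals. Il17ra is highest in classical monocyte-like (233 and 263) and neutrophil-like cells (221 and 202), and Il17rc stands above 2 CPM in the tumour/epithelial-like (21.2 and 24.4) and gamma-delta T-like classes (35.2 and 21.1).

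Between the libraries Il17ra differed little. Over all kept cells its ratio in CPM, AKK over PBS, was 0.973 (0.941 to 1.01). In neutrophil-like cells the ratio was 0.913 (0.864 to 0.966), and 54.9% of PBS and 48.9% of AKK cells had a UMI. Different clusters held these cells, since c3 took 20.9% of the PBS and 5.31% of the AKK class and c4 4.46% and 20.4%. Within the 6 neutrophil-like clusters the ratio lay between 0.700 and 1.01, and below 1 beyond counting error in c6 (0.700, 0.551 to 0.885) and c8 (0.717, 0.621 to 0.827). In macrophage-like cells it was 0.769 (0.679 to 0.870) and in T-like cells 0.865 (0.771 to 0.970). Classical monocyte-like cells had a ratio of 1.13 (1.05 to 1.22), but 1.03 among barcodes with at least 1000 UMIs, where the log2 ratio was 0.036 (-0.081 to 0.154). When each cell was instead classed by its own marker score, the macrophage-like ratio was 0.958, with a log2 ratio of -0.062 (-0.246 to 0.121), and the classical monocyte-like ratio 1.02.

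Larger Il17ra ratios were found in smaller classes. Plasma-like cells were at 0.648 (0.520 to 0.811) and myeloid precursor-like cells at 1.39 (1.23 to 1.58). Gamma-delta T-like cells had 28 UMIs in 13 of 25 PBS and 65 UMIs in 41 of 103 AKK cells, a ratio of 0.587 (0.371 to 0.95). Of the 28 PBS UMIs, 17 were in sub-group 1, and without that sub-group the ratio was 0.647 (0.332 to 1.38). In cDC2-like cells the clusters went different ways, with 112 and 145 CPM in c17.1 (ratio 1.29, 0.899 to 1.89) and 32.3 and 16.6 CPM in c17.2 (0.515, 0.324 to 0.809).

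Il17rc, the chain that IL-17A and IL-17F need beside IL-17RA, lay mainly in 2 classes. All kept cells held 262 PBS and 255 AKK UMIs, or 56.5 (49.9 to 63.8) and 41.3 (36.4 to 46.7) per 1000 cells, a ratio of 0.731 (0.613 to 0.872). When cells with a UMI were counted in place of UMIs, the ratio was 0.858. Its log2 interval of -0.61 to 0.17 included no difference. Tumour/epithelial-like cells held 240 of the PBS and 202 of the AKK UMIs. The CD45 sort should remove this class, which made up 155 (3.34%) of the PBS and 110 (1.78%) of the AKK cells. Within it Il17rc was at 21.2 CPM (18.6 to 24.0) in 86 of 155 PBS cells and 24.4 (21.2 to 28.0) in 70 of 110 AKK cells, a ratio of 1.15 (0.951 to 1.40). The ratio per 1000 kept cells was thus below 1 while that within the class was not. Both chains were found in the same cell in 41.9% of PBS (34.1 to 50.1) and 52.7% of AKK tumour/epithelial-like cells (43.0 to 62.3).

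The gamma-delta T-like class was the other with Il17rc. It held 8 UMIs in 6 of 25 PBS cells (35.2 CPM, 15.2 to 69.3) and 19 UMIs in 16 of 103 AKK cells (21.1 CPM, 12.7 to 33.0), a ratio of 0.600 (0.251 to 1.59). In 16.0% and 7.77% of these cells both chains were found. Every other class had at most 7 Il17rc UMIs in a library. Neutrophil-like cells had 4 and 2, and classical monocyte-like cells 0 and 4, although these classes had the highest Il17ra CPM. Il17re, the partner chain for IL-17C, had 99 of its 126 UMIs in the gamma-delta T-like class, at 79.2 and 90.1 CPM (ratio 1.14, 0.676 to 2.02).

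The receptor genes of IL-22 differed widely in their counts. Il10rb had 6083 PBS and 5976 AKK UMIs, and 5863 of these 12059 UMIs were in neutrophil-like cells. Il22ra1, the chain that restricts the response to epithelial cells, had 16 PBS and 7 AKK UMIs, 10 of them in tumour/epithelial-like cells. Il22ra2, which encodes a soluble decoy receptor, had 125 of 238 UMIs in neutrophil-like cells, at 4.20 and 6.31 CPM (ratio 1.5, 1.04 to 2.19).

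Most genes known to respond to IL-17 were lower in the classical monocyte-like cells of the AKK library, whose kept cells held more Il17a. A list of 24 genes known to be induced by IL-17 was counted in the gamma-delta T-like class and in 6 others. Many of these genes also respond to other signals through NF-kB. In gamma-delta T-like cells 2 of 10 measured members were at least 1.5-fold lower and 1 was as much higher in the AKK library. Of all genes of that class, 14.2% were as much lower and 22.3% as much higher. The median log2 ratio of CPM + 5 there was -0.18, and 0.07 over all genes. In classical monocyte-like cells 14 of 19 measured members were at least 1.5-fold lower and 1 was as much higher in the AKK library, while 11.4% of all 11180 genes measured were as much lower and 15.3% as much higher. The median log2 ratio of CPM + 5 was -1.05 over these members and 0.10 over all genes. Cxcl1, a neutrophil-drawing chemokine, was at 224 CPM in the PBS and 46.3 in the AKK library (ratio 0.207, 0.179 to 0.237), and Cxcl2, of the same group, at 6631 and 2357 (0.355, 0.348 to 0.363). Csf3, the gene of the growth factor G-CSF, had 54 and 4 UMIs (ratio 0.0806, 0.0212 to 0.219), and Il6 was at 228 and 90.9 CPM (0.399, 0.358 to 0.443). The IkB zeta gene Nfkbiz was at 1164 and 709.7 CPM (0.610, 0.586 to 0.635), and Zc3h12a, whose product Regnase-1 degrades such transcripts, at 175 and 168 (0.964, 0.879 to 1.06). Cebpd, a transcription factor gene, was the member that was higher, at 26.0 and 50.8 CPM (1.96, 1.60 to 2.41).

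Neutrophil markers were also lower in the AKK monocyte-like cells, as all 10 of that list together summed to 5209 CPM in the PBS and 2344 in the AKK class. B-like cells, where these genes are not expected, had 867 and 600.5 CPM with all 10 present. The list of targets holds 3 of those markers, Mmp9, S100a8 and S100a9, and without them 12 of 16 members were lower. In the monocyte-like cells the macrophage markers summed to 2587 and 1724 CPM (10 of 10 in both libraries) and the monocyte markers to 7668 and 8505 (8 of 8). The part of neutrophil and macrophage RNA in the monocyte-like values was not tested.

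In macrophage-like cells 9 of 20 measured target genes were at least 1.5-fold lower and none was as much higher, against 10.6% lower and 10.3% higher among 12800 genes. The median log2 ratio was -0.45, and 0.07 over all genes. Cxcl1 was at 499 and 283 CPM (ratio 0.567, 0.538 to 0.597), Ccl2, the monocyte chemokine gene, at 452 and 236 (0.521, 0.493 to 0.551), and the collagenase gene Mmp13 at 1131 and 637 (0.564, 0.544 to 0.583). Cxcl2 was at 7112 and 5303 CPM (0.746, 0.736 to 0.755), Nfkbiz at 1083 and 703 (0.649, 0.627 to 0.671), and Csf3 had 7 and 4 UMIs. The class's own macrophage markers summed to 10716 and 6889 CPM and the neutrophil markers to 2472 and 2744 CPM (10 of 10 of each list in both libraries), and the part of the former in these values was not tested.

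Neutrophil-like cells, with the second highest Il17ra CPM in the AKK library, showed less of this. Of 20 measured members 5 were at least 1.5-fold lower and 1 as much higher, against 6.75% lower and 11.1% higher among 12739 genes, with a median log2 ratio of -0.10 (0.04 over all genes). Csf3 was at 12.2 and 3.95 CPM (ratio 0.325, 0.228 to 0.454), and Lcn2, which encodes the iron-trapping lipocalin 2, at 2271 and 1451 (0.639, 0.627 to 0.651). Steap4, a metalloreductase gene, was the higher member, at 34.4 and 51.9 CPM (1.51, 1.33 to 1.71). After scaling by the median gene no member was higher and 5 were lower. Cxcl1 was at 122 and 140 CPM (1.15, 1.07 to 1.23), Cxcl2 at 21101 and 20162 (0.955, 0.95 to 0.961), and Nfkbiz at 2536 and 2493 (0.983, 0.967 to 0.999).

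Tumour/epithelial-like cells, with both receptor chains, had 8 of 20 measured target genes at least 1.5-fold lower and 1 as much higher, against 6.31% lower and 9.83% higher among 13243 genes. The median log2 ratio was -0.41 (0.04 over all genes). Cxcl1 was at 230 and 75.8 CPM (ratio 0.330, 0.302 to 0.360), Lcn2 at 46.9 and 20.4 (0.436, 0.364 to 0.519), and Tnfaip3, which encodes the NF-kB brake A20, at 71.4 and 39.4 (0.552, 0.484 to 0.628). Ccl7 was higher, at 6.62 and 12.2 CPM (1.84, 1.35 to 2.52). The macrophage markers summed to 340 and 264 CPM and the neutrophil markers to 992 and 842 CPM in these cells (10 of 10 of each list in both libraries), and their part was not tested. In cDC2-like cells 7 of 18 were lower and none higher (7.02% and 14.1% of 10081 genes). Lcn2, S100a8 and S100a9 were among the 7, the neutrophil markers summed to 4846 and 3454 CPM in this class (10 and 9 of 10, Ly6g at 0 in the latter), and without the class markers 5 of 15 were lower. Cluster c17.1 took 25% of the PBS and 42.5% of the AKK cells of this class. In T-like cells 6 of 18 were lower and none higher (9.87% and 6.48% of 12153 genes). Among the 6 lower members in T-like cells were Lcn2 and S100a8, and the neutrophil markers summed there to 1133 and 650 CPM.

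**Figure D4:**
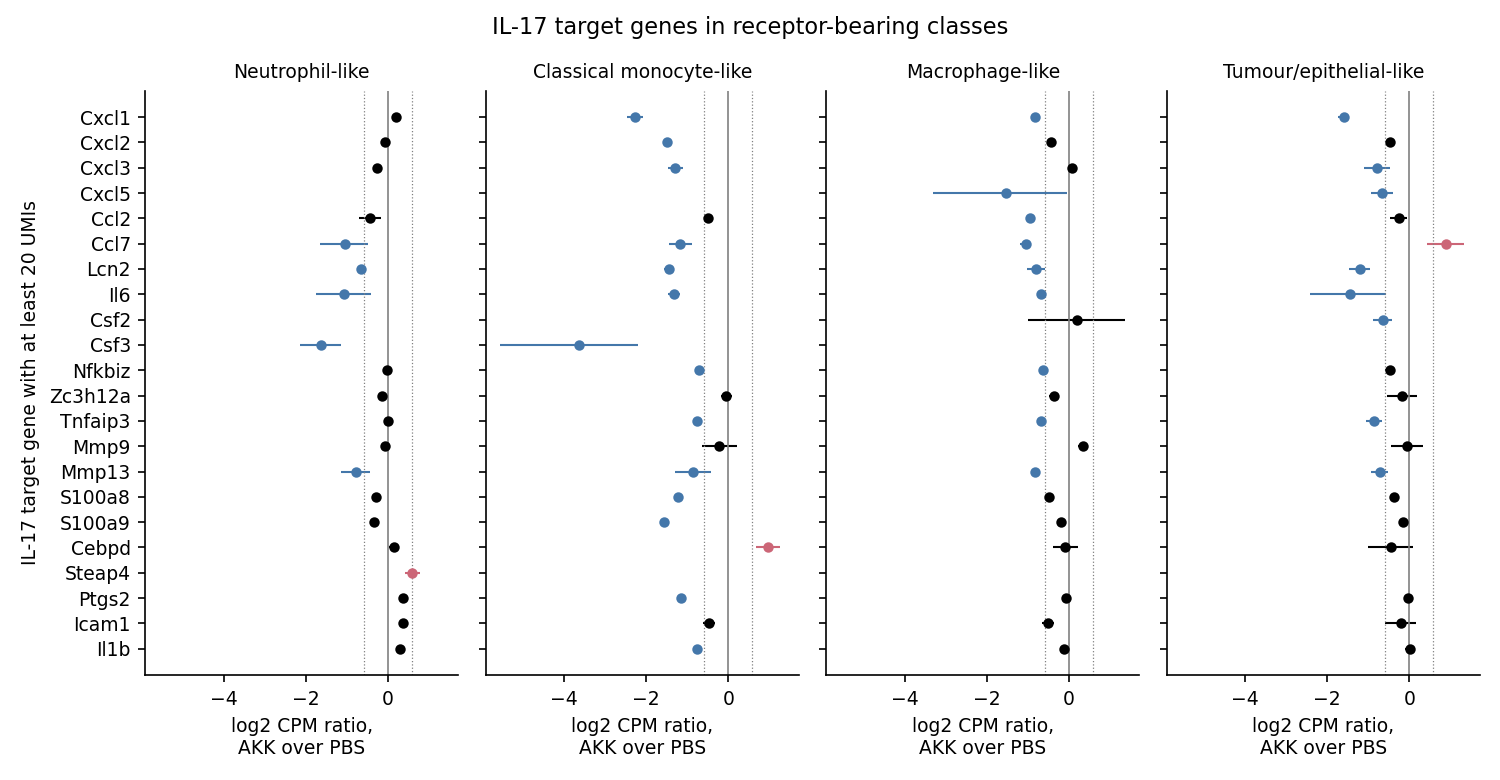
log2 CPM ratio, AKK over PBS, of each IL-17 target gene with at least 20 UMIs in 4 cell classes, with 95% intervals of counting error. Dotted lines mark 1.5-fold, and coloured points lie beyond them. In classical monocyte-like cells 14 of 19 points lie left of the lower line, against 5 of 20 in neutrophil-like cells.

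The genes of receptor signalling had medians near those of all genes in these classes, for example log2 ratios of 0.09 against 0.10 in classical monocyte-like and 0.01 against 0.04 in neutrophil-like cells. Of 24 measured members in classical monocyte-like cells 5 were lower and 1 higher, where 11.4% and 15.3% of all genes were. Of 25 in macrophage-like cells 2 were lower and 1 higher (10.6% and 10.3% of all genes), and of 25 in neutrophil-like cells 2 and 0 (6.75% and 11.1%). Of 25 in tumour/epithelial-like cells 1 was lower and 0 higher (6.31% and 9.83%). In T-like and cDC2-like cells none of 25 and none of 24 passed in either direction. Traf3ip2, the Act1 gene, was at 5.05 and 5.31 CPM in classical monocyte-like cells (ratio 1.05, 0.602 to 1.83), at 10.4 and 12.4 in tumour/epithelial-like cells (1.19, 0.908 to 1.57) and at 59.3 and 59.5 in T-like cells (1.0, 0.865 to 1.17). In gamma-delta T-like cells, where 4 of 22 members were lower and 2 higher (14.2% and 22.3% of all genes) and the median was -0.16 against 0.07, it was at 92.4 and 41.1 CPM (0.445, 0.254 to 0.801). Nfkb1, the p105 gene of NF-kB, was at 2103 and 977 CPM in classical monocyte-like cells (0.465, 0.450 to 0.480).

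Most cytokine genes known to induce IL-17 were lower in the monocyte-like and macrophage-like cells of the AKK library. In classical monocyte-like and in macrophage-like cells 5 of 7 measured inducer genes were at least 1.5-fold lower and none higher, with median log2 ratios of -0.88 and -0.82, against 0.10 and 0.07 over all genes. Of all genes 11.4% were as much lower and 15.3% as much higher in the former class, and 10.6% and 10.3% in the latter. Il6 and Il1b are members of both this list and the list of IL-17 target genes, so the counts of these lists are not separate. Il23a, the IL-23 subunit gene, was at 37.0 and 6.45 CPM in monocyte-like cells (ratio 0.175, 0.118 to 0.252) and at 50.5 and 22.3 in macrophage-like cells (0.442, 0.368 to 0.529). Il12b, its partner subunit, had 300 PBS and 22 AKK UMIs in macrophage-like cells (0.0970, 0.0599 to 0.150). Il1a was at 441 and 117 CPM in monocyte-like cells (0.265, 0.242 to 0.289) and at 691 and 328 in macrophage-like cells (0.475, 0.453 to 0.498). In neutrophil-like cells 1 of 6 was lower (6.75% of all genes), and Il23a was at 142 and 122 CPM (0.862, 0.803 to 0.925). The neutrophil markers summed to 5209 and 2344 CPM in monocyte-like cells, and the macrophage markers to 10716 and 6889 CPM in macrophage-like cells. Their part in the values of the inducer genes was not tested.

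By their profile over the 15 classes, the genes most like Il17a among 16397 with at least 50 UMIs were 5830411N06Rik, Ly6g5b, A130023I24Rik, Cd163l1 and 1700012B07Rik, with Pearson correlations of log2(CPM + 10) of 0.999 to 0.997. All of them peaked in gamma-delta T-like cells, and 5830411N06Rik and Cd163l1 are markers that named that class. For Il17ra they were Map3k5 (0.885), Foxo3 (0.860), Ints6l (0.836), AB124611 (0.831) and Asmt (0.823). The points are the same 15 classes, which share 2 libraries and differ in depth. As 90.7% of the Il17a UMIs lay in gamma-delta T-like cells, this 1 class largely sets the correlations with Il17a.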

How the data were processed

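Single-cell libraries were prepared with the 10x Genomics 3′ v3 kit from tumours digested with collagenase, enriched on Percoll and sorted, per the labels' protocols. The authors deposited whole-number UMI counts per gene and barcode, with no normalization. Cell Ranger 7.1.0 wrote them, per the file headers, but version 5.0.1 and mm10 stand in the submitters' processing notes. Whether intronic reads were counted is not known from these. The lowest total was 500 UMIs, so barcodes had been filtered.

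Barcodes with at least 200 genes and under 15% mitochondrial UMIs were kept (scanpy 1.11.5). Scrublet's highest scores, 0.8% per 1000 barcodes, were removed as doublets (197 PBS, 345 AKK cells). Cells were clustered jointly without the 5 genes (2000 variable genes, 30 components, Leiden resolution 1.0). The 33 clusters were named by the mean log2 ratio of marker lists to the median cluster, with settings chosen after the clusters were seen; 2 stayed unnamed. UMIs were summed per library and class and scaled to CPM. Ratios have exact conditional binomial, sums exact Poisson, shares exact Clopper-Pearson and differences of shares Newcombe intervals at 95%; a limit beside a count of 0 is 3 counts over the cells. No test between libraries was possible with 1 library per group. A gene was measured in a class with at least 20 UMIs over both libraries. List members were named where the ratio passed 1.5-fold and its interval excluded 1, at most 6 per list, class and direction, beside a fixed set of pathway genes. The ratio rule was tested on simulated data. The members and lists were chosen with earlier results of these data known. Alternatives changed the filters, clustering, scaling and weights. Some list members and marker genes are not reported here.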

Additional observations from a re-analysis of the deposited data

How the results depend on the processing

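Of 83 values under alternative settings, 74 stayed within the main counting interval. These counts include settings that changed only the clusters or classes, which could not alter the Il17a and Il17rc ratios per 1000 kept cells. The Il17a ratio per 1000 kept cells kept its direction in all 10 alternatives, including those that could not move it. The gamma-delta T-like share kept its direction in 8 of 8, and the Il17ra ratios in neutrophil-like cells in 10 of 10 and T-like cells in 9 of 9. On the log2 scale, the main Il17a ratio per gamma-delta T-like cell of 0.30 was 0.63 with each cell classed by its own marker score, 0.13 (-0.10 to 0.37) with each library clustered alone, and -0.33 when cells with a UMI were counted in place of UMIs, where the shares were 56.0% and 44.7%. The main Il17ra value in monocyte-like cells of 0.18 was 0.036 with at least 1000 UMIs per barcode, 0.026 by own marker score and 0.046 after scaling by the median ratio over genes, and that in macrophage-like cells of -0.38 was -0.062 by own marker score. For these the cause was not tested. In settings added after the data were seen, the Il17a ratio per 1000 kept cells of 2.04 was 2.51 without the top cell of each library and 3.07 without sub-group 1, and that per gamma-delta T-like cell was 0.74 without the top cells. Scaling by the median gene shifted monocyte-like ratios by 0.13 and macrophage-like ratios by 0.10; the lower target genes then numbered 16 of 19 and 11 of 20, and those in cDC2-like cells 10 of 18. The 25 PBS gamma-delta T-like cells, and the few Il17f and Il22 UMIs, limit what can be seen. No paired analysis was possible because each group has 1 library.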
